A study of Mus musculus with 8 samples.

Results

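The noncoding RNAs and pseudogenes listed for the colon epithelium of mice lacking Efhd2 were described gene by gene. They were chosen as the rows of the deposited tables whose biotype was neither protein_coding nor an immunoglobulin or T cell receptor class, with 1 further gene left out by the rule. This gave 49 of the 309 rows of the day 0 table and 6 of the 128 rows of the day 7 table, or 55 of 437 rows in all. They belong to 54 distinct genes, because 1 gene, 9130204K15Rik, was listed on both days. Each table holds rows that the authors had kept for a difference between the same libraries, so which direction a row takes and whether it passes a test were largely set before any value was read here.

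Primary intestinal epithelial cells (IECs) were isolated from mouse colons, and their RNA was sequenced. The deficient group was Efhd2f/f Vil1cre/+, in which Cre driven by the villin promoter removes the floxed part of Efhd2 in the intestinal epithelium, and the control group was Efhd2f/f, which carries the same floxed allele without Cre and which the labels call Wildtype. Both were taken on day 0 without dextran sulfate sodium (DSS), a polymer that injures the colon lining, and on day 7 after its administration. Each of the 4 groups has 2 libraries, numbered 51 and 53 (deficient) and 50 and 52 (control) on day 0, and 65 and 71 (deficient) and 67 and 68 (control) on day 7. Nothing in the labels says whether the libraries of a group came from separate animals, so p-values measure the spread between these libraries only.

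The unit throughout is the normalized count, a read count per gene that the authors scaled between libraries. Differences are deficient minus control on log2(normalized count + 1), a scale that understates the change of low genes, and adjusted p-values are from limma over all rows of a day. A row was called when its adjusted p was under 0.05 and its absolute log2 difference above 1. The total depth of the libraries is unknown from tables of selected rows. Efhd2 itself was at 556 and 713 in the deficient libraries of day 0 and at 2663 and 2686 in the controls, and was not among the rows of day 7. None of 10 epithelial markers such as Epcam and Vil1 was among the rows of either day, so the labelled cell type could not be checked from these tables.

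Genes without a protein product act in several ways. Long noncoding RNAs include nuclear regulators and transcripts of imprinted clusters, microRNAs pair through a short seed with messenger RNAs and lower their output, and 7SK is a small nuclear RNA that holds the elongation factor P-TEFb inactive. Pseudogenes are copies of coding genes: a processed pseudogene arose from a reverse-transcribed messenger RNA, and an unprocessed one from a duplicated gene. A read from a messenger RNA can match a recent processed copy nearly or fully, and an RNA read without strand cannot be told from one of its antisense partner.

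On day 0 the members divided into 26 long noncoding RNA genes, 2 short noncoding RNA genes and 21 pseudogenes. Of the 49, 16 were higher and 33 lower in deficient IECs, and limma called 15 of them higher and 30 lower. Over all 309 rows, 92.9% were called (30.4% higher and 62.5% lower). With 1 library left out, a fit sets 2 libraries against 1. The lone library is assumed to vary like the other group, so only differences are given here. That of Rn7sk stayed between -3.15 and -2.29 and that of Gm10154 between -3.15 and -2.61. Less steady were Hist1h2al (-6.68 to -1.40), Gm2260 (-4.19 to -0.29) and Mir23a (2.20 to 4.59). Giving the libraries the same protein_coding sum moves the median log2 difference of all rows by -0.66, and 5 members were then called higher and 31 lower. These sums cover only listed rows, kept for a difference, and were larger in the deficient libraries (251452 and 198313 against 140846 and 141863). Making them equal therefore lowers the differences by construction. The calls of Meg3, Rian, Gm37352, Gm43361, Gm38357, Gm17300, Gm15542, Gm7993, Gm10288 and Rpl15-ps3 ended under this scaling. Both deficient libraries lay above both controls for 16 members and below both for 32, where 32% and 67% of all rows did so. The median log2 difference was -1.34 over the 47 members without a group at 0 and -1.16 over the rows of the whole table treated the same way. The median level was 57.7 normalized counts for members and 97.7 for all rows, but per kilobase of exon it was 45.8 and 37.5. The members therefore stood at lower counts and at shorter lengths (median 1588 bases against 3050), and 28 of the 49 reached a mean of 50.

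**Figure D1:**
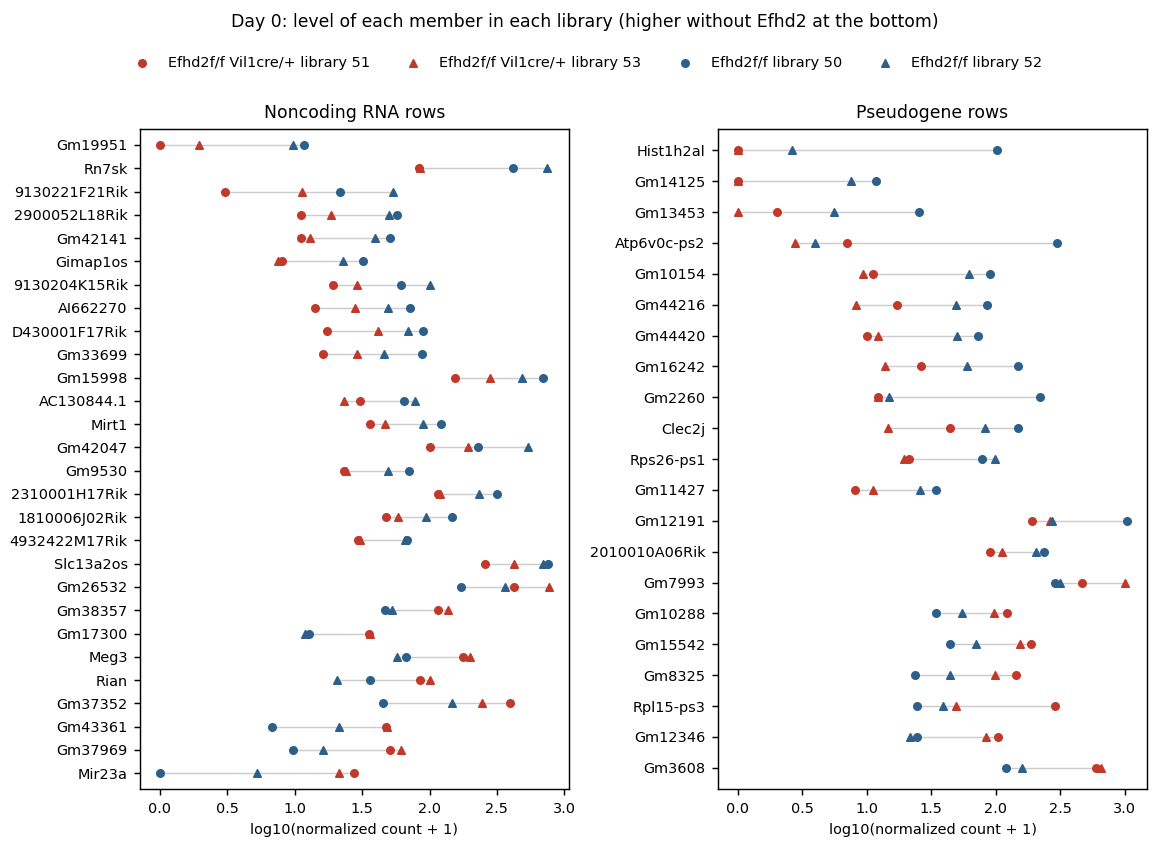
Level of each of the 49 members of day 0, as log10(normalized count + 1), in the 2 Efhd2f/f Vil1cre/+ libraries (red) and the 2 Efhd2f/f libraries (blue), with noncoding RNAs on the left and pseudogenes on the right; a grey line joins the lowest and the highest library. In 16 rows both red points lie above both blue ones, in 32 both lie below, and for Hist1h2al, Gm2260 and Atp6v0c-ps2 control library 50 stands far to the right of the other 3.

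Over all rows of day 0, 32% were higher and 68% lower. The biotypes of the members were all small, and only some lay near this division. Those with 1 or 3 members each lay wholly in 1 direction, and 1 larger biotype, TEC, was mostly higher (66.7%). Among 13 lincRNAs (long RNAs between coding genes) 3 were higher and 10 lower, and 2 and 10 were called. All 3 antisense RNAs were lower and called, as were 3 of 4 processed transcripts. TEC, a provisional class for transcripts still awaiting laboratory evidence, held 4 higher and 2 lower members, all called. Among 11 processed pseudogenes 4 were higher and 7 lower (4 and 5 called). The 5 transcribed processed pseudogenes held 2 higher and 3 lower, all called, and the 3 unprocessed pseudogenes were lower, with 2 called.

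Mir23a was the only microRNA gene among the rows of either day. It is the first of a cluster of microRNA genes on chromosome 8, and its mature products are shown because the seed, bases 2 to 8, sets which messenger RNAs are paired. The sequences are those of RefSeq on GRCm38.p6, and the hairpin covers chr8:84208518-84208592 on the plus strand, with 1 hairpin and 2 mature entries matched. In the mature sequences the capitals mark the seed, and in the hairpin they mark both mature products.
mmu-miR-23a-5p: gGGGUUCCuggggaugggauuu
mmu-miR-23a-3p: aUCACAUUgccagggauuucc
Mir23a hairpin: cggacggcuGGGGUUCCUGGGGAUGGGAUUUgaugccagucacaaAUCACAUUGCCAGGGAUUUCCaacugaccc
The arms carry different seeds.

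Mir23a counted 26.3 and 20.3 in the deficient libraries and 0 and 4.25 in the controls. Both deficient libraries were above both controls, with a log2 difference of 3.40 (SE 0.71, adjusted p = 0.00771, limma). On this scale it was the largest increase among the members of day 0, but the value depends on the pseudocount. It was 5.14 with 0.1 and 1.48 with 10, where several other members exceeded it, led by Gm3608 (2.10) and Gm37352 (1.80). Without library 50, and with the pseudocount of 1, the difference of Mir23a was 2.20. The row counts reads over the 75 bases of the hairpin, so it measures RNA that spans this gene and not the mature microRNA, and at these levels each library rests on few reads.

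The lincRNA Gm26532 begins 328 bases downstream of Mir23a on the same strand (chr8:84208920-84209609), sharing 2 bases with Mir24-2, another microRNA gene of that cluster. It was at 419.7 and 770.1 in the deficient libraries and at 170.4 and 363 in the controls. Its groups did not overlap, but the spread within each was wide and it was not called, with a log2 difference of 1.19 (SE 0.51, adjusted p = 0.0508, limma). The TEC gene Gm37352 lies 5469 bases upstream of Mir23a (chr8:84200869-84203049, plus strand). It stood at 391 and 244 against 44.0 and 147, a difference of 1.93 (SE 0.59, adjusted p = 0.0209, limma). Without library 50 the difference of Gm37352 was 1.07, and with equal protein_coding sums it was 1.27 and not called (adjusted p = 0.0976, limma). All 3 neighbours were thus higher in both deficient libraries than in either control, which was so for 32% of all rows of day 0. The nearest listed coding gene, Dnajb1, the gene of a J-domain cochaperone, lay 588216 bases from Gm37352 and was at 4415 and 4372 against 802 and 1601.

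Meg3 and Rian, maternally expressed RNAs of one imprinted cluster on chromosome 12, were both higher without Efhd2 under the scaling of the authors. Meg3 (chr12:109541001-109571726) was at 175 and 200.4 in deficient and 65.7 and 56.5 in control libraries. Its log2 difference was 1.61 (SE 0.39, adjusted p = 0.0110, limma). Rian, which hosts small nucleolar RNAs and lies 32214 bases further along the same strand (chr12:109603940-109661716), was at 84.2 and 99.3 against 35.3 and 19.7, a difference of 1.75 (SE 0.43, adjusted p = 0.0114, limma). For both genes the libraries of a group lay close together compared with the gap between the groups. Of a list of 13 nuclear and imprinted long noncoding RNAs that also names Malat1, Neat1, H19 and Mirg, these 2 were listed on day 0, both called higher, and none on day 7. With equal protein_coding sums neither was called, Meg3 at 0.95 (adjusted p = 0.0820, limma) and Rian at 1.11 (adjusted p = 0.0733, limma).

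**Figure D2:**
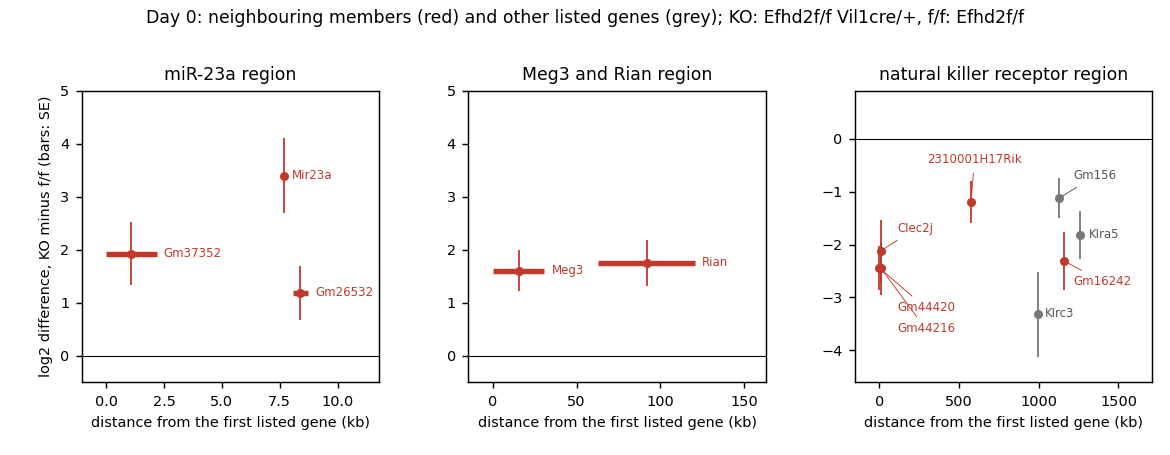
Log2 difference between Efhd2f/f Vil1cre/+ and Efhd2f/f libraries on day 0 (points, with standard errors) for listed genes of 3 regions, against distance in kilobases from the first listed gene shown; thick bars mark the extent of a gene, members are red and other listed genes grey. All points of the first 2 regions lie above 0 (1.19 to 3.40) and all those of the third below 0 (-1.12 to -3.32). Of all rows of day 0, 32% were higher and 68% lower.

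The other long noncoding RNAs that were higher came from scattered places. Gm37969, a TEC transcript inside the span of Tcf7l1, the gene of a transcription factor of the Wnt pathway, was at 49.7 and 60.4 against 8.80 and 15.1 (log2 difference 2.15, SE 0.42, adjusted p = 0.00640, limma). Tcf7l1 was at 195 and 231 against 94.1 and 100.9, with a difference of 1.11. In share of the Tcf7l1 count, Gm37969 made up 25.5% and 26.1% in the deficient and 9.35% and 15.0% in the control libraries. The count of Gm37969 was therefore further apart between the genotypes than that of Tcf7l1 in these 4 libraries, without a test of that ratio. Gm37969 shares 926 exonic bases with the antisense gene Gm15401 on the opposite strand. Strand-specific counting is not stated, so reads of Gm37969 and Gm15401 cannot be told apart.

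Gm43361 was at 46.6 and 47.3 in deficient and 5.83 and 20.4 in control libraries, a log2 difference of 1.99 (1.17 without library 50), and shares 83 exonic bases with the opposite-strand gene of the calcium pump Atp2a2. Gm38357, inside the span of the clock-controlled gene Noct, was at 115.6 and 135 against 46.0 and 52.1, a difference of 1.34. Gm17300 was at 34.5 and 35.2 against 11.8 and 10.9, a difference of 1.54, with libraries of a group nearly level. It shares 705 exonic bases with Snhg3 on the opposite strand, and since strand-specific counting is not stated, reads of these genes cannot be told apart.

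Rn7sk, the gene of the 7SK RNA, was the most abundant noncoding RNA member per kilobase, at a mean of 1001 normalized counts per kilobase. It lies at chr9:78175303-78175633 on the minus strand and is 331 bases long. Its first 100 bases in GRCm38 are shown because this end holds the paired GATC motifs that HEXIM proteins bind, and the 3 occurrences of GATC are in capitals.
Rn7sk: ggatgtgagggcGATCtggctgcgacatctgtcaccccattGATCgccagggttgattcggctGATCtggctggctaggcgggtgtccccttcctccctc

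Rn7sk was at 83.1 and 83.5 in the deficient libraries and at 412 and 746 in the controls. The deficient libraries were nearly equal and both far below the controls, whose own values were apart. The control mean was 6.96-fold the deficient mean, and the log2 difference was -2.72 (SE 0.43, adjusted p = 0.00384, limma). Of 9 genes of the 7SK and P-TEFb list, including Hexim1, Larp7 and Cdk9, Rn7sk alone was listed on day 0 and none on day 7. No other small structural RNA gene, such as Rmrp or Rpph1, was listed on either day. 7SK has no poly(A) tail, and whether poly(A) selection was used in these libraries is not given in the sources used here.

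The 3 antisense RNAs were lower with their groups apart. Slc13a2os, on the strand opposite the dicarboxylate cotransporter gene Slc13a2 (chr11:78394485-78405657), was at 258 and 424 in deficient and 759.5 and 693 in control libraries, a log2 difference of -1.13 (SE 0.42, adjusted p = 0.0344, limma). Slc13a2 was at 2700.5 and 4199 against 9065 and 6937, a difference of -1.24. The antisense count was 9.54% and 10.1% of the sense count in the deficient libraries and 8.38% and 9.99% in the controls. It followed the sense gene closely in all 4 libraries, and the genes share 632 exonic bases.

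Gm15998, which shares 344 exonic bases with the ephrin gene Efna3, was at 154 and 279 against 696 and 484, a log2 difference of -1.48. D430001F17Rik, opposite the ATP synthase subunit gene Atp5o, was at 16.3 and 40.1 against 88.2 and 68.5, a difference of -1.56 (-0.94 without library 51). Gimap1os, a processed transcript named as the opposite strand of the lymphocyte GTPase gene Gimap1 and sharing 1107 exonic bases with it, was at 7.09 and 6.48 against 31.4 and 21.8, a difference of -1.81. Neither Efna3, Atp5o nor Gimap1 was listed, and the listed relative Gimap8, 77471 bases away, was at 339 and 369 against 875 and 602. In all, 18 of the 49 members share exonic bases with another gene, 14 of them on the opposite strand and 7 of these with a protein-coding gene.

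The other lincRNAs were lower, with differences from -1.16 to -2.94. The abundant ones were Gm42047, at 100.4 and 191 against 228 and 541, and 2310001H17Rik, at 115.6 and 119.6 against 316 and 231. Gm42047 spread widely in both groups (log2 difference -1.34, SE 0.54, adjusted p = 0.0412, limma) and moved to -0.87 without library 51 and -0.71 without library 52, while the deficient libraries of 2310001H17Rik were almost level (-1.19, SE 0.40, adjusted p = 0.0258, limma). Mirt1 was at 35.5 and 45.5 against 120.6 and 89.2, a difference of -1.35, and 1810006J02Rik at 46.6 and 57.6 against 147 and 93.7, a difference of -1.16.

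The lincRNAs with the largest differences were low. Gm19951 was at 0.0016 and 0.937 in deficient and 10.8 and 8.73 in control libraries, a log2 difference of -2.94, so it was listed near 0 in the deficient libraries and low in the controls. 9130221F21Rik was at 2.05 and 10.3 against 20.5 and 52.8, a difference of -2.53 (-1.59 without library 51). 9130204K15Rik was at 18.3 and 27.9 against 60.7 and 99.6, and is taken up with day 7. The processed transcript 2900052L18Rik was at 10.2 and 17.7 against 56.9 and 48.9, a difference of -1.89. The remaining lower members of these classes, Gm42141, Gm33699, AC130844.1, Gm9530 and 4932422M17Rik, ranged from -1.89 to -1.16, and all 5 were called.

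Of the 21 pseudogenes of day 0, 20 aligned over at least 50% of their length with the transcript of a protein-coding gene. The identity was at least 99% for 12 of them and at least 95% for 15. In 3 pairs the coding gene was listed too. Each pair is shown as a stretch of 60 bases around a place where copy and gene differ. The differing bases are in capitals, and substitutions give the coding base, the position from the 5′ end of the pseudogene transcript and the pseudogene base: G148A in Gm12346, C777T and G799A in Gm15542, and G236A and C237T in Gm10154.
Gm12346: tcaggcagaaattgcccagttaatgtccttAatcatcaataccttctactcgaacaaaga
Hsp90aa1: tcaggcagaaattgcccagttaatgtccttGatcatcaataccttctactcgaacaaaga
Gm15542: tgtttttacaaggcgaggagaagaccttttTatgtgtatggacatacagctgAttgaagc
Dnaja1: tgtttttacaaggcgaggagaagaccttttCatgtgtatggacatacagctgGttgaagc
Gm10154: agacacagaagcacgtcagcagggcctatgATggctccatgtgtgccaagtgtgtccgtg
Rpl34: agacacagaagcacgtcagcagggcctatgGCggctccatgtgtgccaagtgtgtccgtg
How reads that match several places were counted is not given in the sources used here, so the level of a copy and that of its gene may share reads.

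Gm12346 (chr11:77293444-77295898, plus strand) differs from Hsp90aa1, the stress-inducible Hsp90 gene, at 12 of 2255 aligned positions and has a run of 530 identical bases. It was at 103 and 83.3 in deficient and 23.5 and 20.7 in control libraries, a log2 difference of 2.02 (SE 0.39, adjusted p = 0.00586, limma). Hsp90aa1 was at 8998 and 6829 against 1688 and 1965, a difference of 2.11. The copy amounted to 1.15% and 1.22% of the coding count in the deficient libraries and 1.39% and 1.05% in the controls. The shares of the genotypes overlapped, so copy and gene differed between them by about the same factor.

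Gm15542 (chr7:140890887-140892080, plus strand) differs from Dnaja1, an Hsp40 cochaperone gene, at 7 of 1194 positions. It was at 185 and 155 against 43.1 and 69.2, a log2 difference of 1.62 (SE 0.42, adjusted p = 0.0130, limma), and amounted to 2.84% and 2.80% of Dnaja1 in the deficient and 3.32% and 4.30% in the control libraries. Dnaja1 was at 6531 and 5522 against 1296 and 1610. Of a list of 12 heat shock genes, 8 were listed on day 0, all higher, with sums of 72184 and 58678 in the deficient and 15542 and 16283 in the control libraries, and the part of reads from these genes in the counts of their copies was not tested.

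Gm10154 (chr4:83505185-83505538, minus strand) differs from the ribosomal protein gene Rpl34 at 4 of 354 positions and was lower together with it. It was at 10.1 and 8.31 in deficient and 89.2 and 61.0 in control libraries, a log2 difference of -2.88 (SE 0.41, adjusted p = 0.00266, limma). Rpl34 was at 96.3 and 66.6 against 2704 and 1327, a difference of -4.55. The copy amounted to 10.5% and 12.5% of Rpl34 in the deficient libraries and 3.30% and 4.60% in the controls, and these shares of the genotypes did not overlap, a ratio that was not tested. Rps26-ps1, a copy 99.1% identical to Rps26, was also lower, at 20.3 and 18.5 against 77.4 and 97.6 (log2 difference -2.11), with Rps26 not among the rows.

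**Figure D3:**
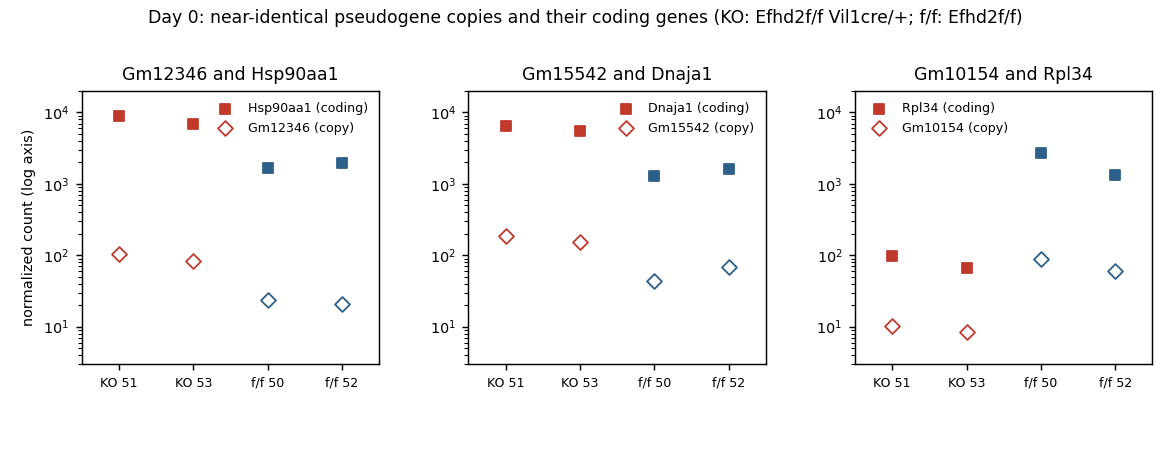
Normalized counts (log axis) on day 0 in Efhd2f/f Vil1cre/+ libraries (KO, red) and Efhd2f/f libraries (f/f, blue) of 3 coding genes (filled squares) and their near-identical pseudogene copies (open diamonds). Gm12346 lies at 1.05% to 1.39% of Hsp90aa1 and Gm15542 at 2.80% to 4.30% of Dnaja1 in the 4 libraries, while Gm10154 lies closer to Rpl34 in the KO libraries (10.5% and 12.5% of it) than in the f/f libraries (3.30% and 4.60%).

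The other pseudogenes that were higher had coding relatives that were not listed. Gm3608, 99.5% identical to the actin capping gene Capza1, was at 600.1 and 652 in deficient and 119.5 and 159 in control libraries. It was the largest increase among the pseudogenes (log2 difference 2.17, SE 0.39, adjusted p = 0.00528, limma). Gm8325, whose match is the ubiquitin-conjugating enzyme variant gene Ube2v1, was at 142 and 97.1 against 22.5 and 43.2, a difference of 1.88. Gm10288, a copy of Rpl11 with 1 differing base, was at 120.6 and 96.3 against 33.3 and 54.1, a difference of 1.32.

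Gm7993, 95.7% identical to Odc1, the gene of the first enzyme of polyamine synthesis, was the most abundant pseudogene by count, at 464 and 1008 against 286 and 314, a log2 difference of 1.19 (SE 0.47, adjusted p = 0.0395, limma). Its control libraries lay together and its deficient ones were apart, and without library 53 the difference was 0.63. Rpl15-ps3, identical to Rpl15 over all 615 bases, was at 286 and 48.4 against 23.5 and 37.8. Its difference of 1.95 (SE 0.75, adjusted p = 0.0375, limma) came mainly from library 51, which was 5.90-fold its next highest library, and was 0.68 without it.

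Control library 50 alone carried 4 of the lower pseudogenes. Atp6v0c-ps2, a near-identical copy of a proton pump subunit gene, was at 6.07 and 1.79 in deficient libraries and at 297 and 2.96 in the controls, so its groups overlapped and it was not called (log2 difference -2.95, SE 1.62, adjusted p = 0.106, limma). Without library 50 its difference turned to 0.16. Gm2260, identical to 657 bases of Anxa11, was at 11.2 and 11.1 against 219.8 and 13.9 and was not called (-2.24, SE 1.04, adjusted p = 0.0630, limma).

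Gm12191, a copy of Rpl30 with 1 differing base, was at 189.6 and 263 against 1047 and 274, and was not called either (log2 difference -1.26, SE 0.62, adjusted p = 0.0768, limma). Hist1h2al, a histone pseudogene, was listed at 0 in both deficient libraries and at 101 and 1.64 in the controls. It was called lower (-4.04, SE 1.36, adjusted p = 0.0269, limma) and is 1 of the 30, but without library 50 it was at -1.40. In these 4 rows library 50 was more than 3 times the next highest library and at least at 50, which was so in library 50 for 3 of the other 260 rows of day 0. Without library 50, Gm2260 was at a log2 difference of -0.29 and Gm12191 at -0.30.

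The pseudogenes Gm14125 and Gm13453 were low throughout. Gm14125 was listed at 0 in both deficient libraries and at 10.8 and 6.59 in the controls, and Gm13453 was at 1.01 and 0 against 24.6 and 4.61 (log2 difference -3.08, and -1.98 without library 50). 2010010A06Rik, with 455 bases similar to the ephrin receptor gene Epha1, was more abundant, at 89.2 and 111 against 234 and 206, a log2 difference of -1.13. The 2010010A06Rik groups did not overlap and their libraries lay close together. Gm11427, 92.0% identical to Slfn4, was at 7.11 and 10.2 against 33.3 and 25.1, and AI662270, which overlaps it by 491 exonic bases on the same strand, at 13.2 and 27.1 against 70.6 and 48.0. Their differences of -1.65 and -1.57 are not separate observations, because reads of the shared bases could count for either.

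A group of 5 members lies on chromosome 6 among genes of natural killer cell receptors and their ligands. Clec2j, an unprocessed pseudogene of the C-type lectin family of those ligands (chr6:128652416-128661820), was at 43.5 and 13.6 in deficient and 148 and 81.8 in control libraries, a log2 difference of -2.12 (SE 0.59, adjusted p = 0.0166, limma), or -1.32 without library 53. Gm44216 and Gm44420 lie in or 3351 bases beside it, and were at 16.2 and 7.30 against 85.3 and 48.1 (-2.45), and at 9.13 and 11.2 against 71.6 and 49.1 (-2.44). Gm16242, further along (chr6:129795804-129813936), was at 25.3 and 12.8 against 147 and 59.1, a difference of -2.31. With the lincRNA 2310001H17Rik, all 5 were lower in both deficient libraries than in either control and were called, in a table where 67% of all rows lay below in this way and 62.5% were called lower.

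The listed coding genes between and beyond them, Klrc3, Gm156 and Klra5, were lower too, with log2 differences of -3.32, -1.12 and -1.82, whereas Fkbp4, a cochaperone gene 209899 bases before Gm44420, was higher (1.11). Killer cell lectin-like receptors are carried by natural killer and some T cells, which also occupy the gut epithelium. Of 15 T and NK cell markers, 6 were listed on day 0 and all 6 were lower (5 called), with sums of 1077 and 1277 in the deficient and 3250 and 1991 in the control libraries. The direction was not theirs alone, since 68% of all rows were lower. Markers of macrophages and monocytes (1 of 12 listed), B and plasma cells (2 of 11) and fibroblasts and muscle (1 of 9) were lower too. That of red blood cells (1 of 5) was higher. The part of T and NK cells in the levels of the members was not tested, and fewer cells of a type and less RNA per cell cannot be told apart in bulk RNA.

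On day 7 the 6 members were 4 long noncoding RNA genes and 2 pseudogenes, of which 5 were higher and 1 lower in deficient IECs. Limma called 4 higher and 1 lower, where 85.2% of all 128 rows were called (77.3% higher and 7.81% lower). When any 1 library of day 7 was left out, none of the 6 was called, with 3 or 4 at an unadjusted p under 0.05. The lone library of such a fit is again assumed to vary like the other group, and the differences of 9130204K15Rik (2.30 to 2.85) and Gm7457 (3.48 to 4.20) stayed about as large. Equal sums over the protein_coding rows moved the median log2 difference of all rows by -2.41, and 1 member was then called higher and 1 lower. Of the 115 protein_coding rows, 105 were higher, with sums of 409334 and 612891 in the deficient and 71660 and 120850 in the control libraries. Making these sums equal removes much of any increase by construction, so it cannot tell a change of genes from one of scaling. Both deficient libraries lay above both controls for 4 members and below both for 1, where 90.6% and 8.59% of all rows did so. The median level of the members was 60.5 normalized counts, against 422 for the table.

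9130204K15Rik, a lincRNA on chromosome 11 (chr11:79781979-79872394, minus strand), was at 110 and 161 in deficient and 26.0 and 17.8 in control libraries on day 7. All deficient values were above all control values, with a log2 difference of 2.57 (SE 0.77, adjusted p = 0.0165, limma). With equal protein_coding sums it was 0.20 and not called (adjusted p = 0.904, limma). On day 0 its difference was -1.74 (SE 0.44, adjusted p = 0.0122, limma), with all deficient values below all control values. The tables were scaled separately, so the difference between the days was not tested. Nos2, the gene of inducible nitric oxide synthase, lies 821725 bases from it and was the only other row within 1 Mb on either day. Nos2 was at 38.5 and 46.4 against 145 and 220.0 on day 0 and at 6100.2 and 1724 against 80.1 and 271 on day 7. It too was lower on day 0 (-2.05) and higher on day 7 (4.45), the common directions, as 68% of all rows were lower on day 0 and 91.4% higher on day 7.

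B230303A05Rik, a transcribed processed pseudogene whose span crosses Inhba, the gene of an activin subunit, without sharing exons with it, was at 66.1 and 30.8 against 2.66 and 0.031. The log2 difference was 4.57 (SE 0.87, adjusted p = 0.00355, limma), and with equal protein_coding sums it was 2.97 and not called (adjusted p = 0.360, limma). Inhba was at 858 and 271 against 44.8 and 87.4, a difference of 2.93. Of the deficient libraries, 65 thus held the higher value of both genes. Of the controls, library 67 held the higher value of the pseudogene but the lower one of Inhba. The pseudogene amounted to 7.70% and 11.4% of Inhba in the deficient libraries and 5.93% and 0.035% in the controls, a ratio that was not tested.

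I830127L07Rik, an unprocessed pseudogene 85.2% identical to Ly6a, the gene of the Sca-1 antigen, was at 22.4 and 139 in deficient and 2.52 and 5.49 in control libraries, a log2 difference of 3.58 (SE 0.95, adjusted p = 0.0118, limma). Library 71 was 6.18-fold library 65, and without library 71 the difference was 2.29. With equal protein_coding sums it was 1.41 and not called (adjusted p = 0.440, limma). Gm7457, which shares 149 exonic bases with the sialyltransferase gene St8sia1 on the other strand, was at 10.2 and 17.4 and was listed at 0 in both controls. Its deficient values, though low, were thus the only ones above 0, and it was called, but not with a pseudocount of 10 (adjusted p = 0.0811, limma).

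The antisense RNA BC018473 was at 1398 in library 65, and at 12.4 in library 71 it lay under both controls (26.9 and 14.5). It was not called (log2 difference 2.72, SE 1.62, adjusted p = 0.122, limma), and without library 65 the difference turned to -0.64. AI506816, the lower member, was at 83.4 and 49.3 in deficient and 190 and 988 in control libraries (-2.74, SE 0.92, adjusted p = 0.0223, limma). Its groups did not overlap, but library 68 was 5.21-fold library 67, and without library 68 the difference was -1.55. Of 15 neutrophil markers 10 were listed on day 7, all called higher, with sums of 21032 and 66044 in the deficient and 4126 and 6965 in the control libraries. The 3 of 12 macrophage and monocyte markers listed were also called higher (13676 and 14245 against 2799 and 4787), as were 4 of 5 red blood cell genes (4139 and 3992 against 562 and 1344), in a table where 91.4% of all rows were higher. The part of these cells in the levels of the members was not tested.

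**Figure D4:**
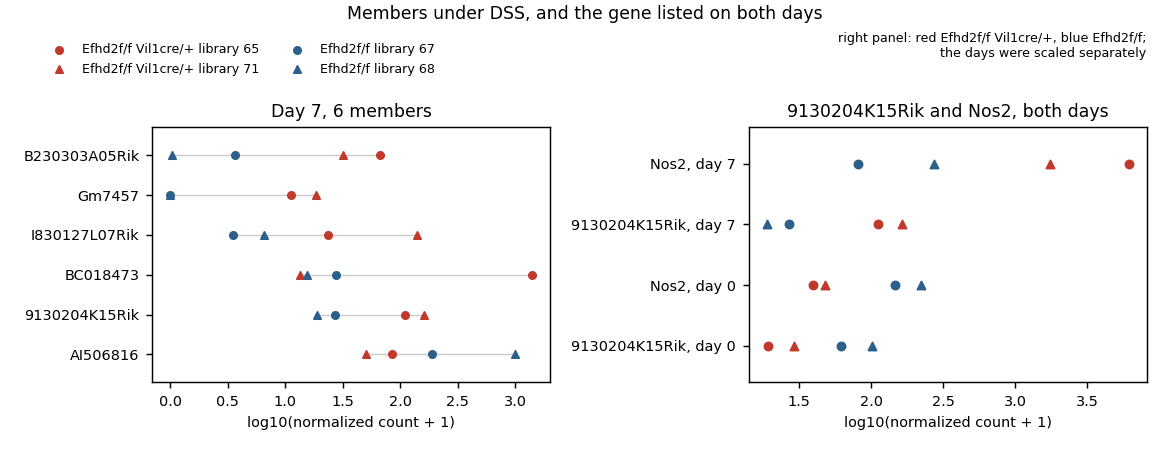
Left, level of each of the 6 members of day 7 as log10(normalized count + 1) in Efhd2f/f Vil1cre/+ (red) and Efhd2f/f (blue) libraries, with a grey line from the lowest to the highest. Right, the same measure for 9130204K15Rik and Nos2 on both days: red lies left of blue on day 0 and right of blue on day 7, and the days were scaled separately.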

How the data were processed

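RNA of colonic IECs was measured in 8 libraries, 2 for each genotype and day. The per-library signal deposited by the authors is a normalized count per gene, with no statement of the scaling method. The authors' own fold changes and p-values (raw and adjusted) stand beside them and were not used, and rows were kept by the authors at an adjusted p under 0.05 and an absolute log2 change above 1. The submitters' processing notes name CASAVA 1.8, fastp, HISAT2 2.0.5, featureCounts 1.5.0-p3, DESeq2 1.20.0 and the builds GRCm38 and mm10, without roles. Library kits were NEBNext Ultra RNA, and strandedness is not given in the sources used here.

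Columns name genotype and day, and number the libraries differently from the labels' replicates. Values under 1e-06 were set to 0 (25 on day 0, 14 on day 7). Genotypes were compared within a day on log2(value + 1) with limma 3.58.1 in R 4.3.3, with Benjamini-Hochberg adjustment over every row of that table. The procedure was tested on simulated data in which most rows were unchanged. The rows here had been kept for a difference, so that test does not show how well the adjusted p-values hold for them. With 2 libraries against 2, an exact permutation test cannot give a two-sided p below 0.333. Count models were not used: low values were whole multiples of a step (within 0.1 of a whole number) for every value in 3 of the 8 libraries only.

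Rows were matched to GENCODE mouse release M21, with 49 of 49 and 6 of 6 members found and 48 and 6 at the same coordinates. Pseudogenes were aligned to protein-coding transcripts with BLAST 2.17.0 (at least 50% of the length). Values in each library are given for members with a mean of at least 50, the 3 largest differences in each biotype, curated symbols, members on both days and members whose sense or parent gene was listed. The members, marker lists and noncoding lists were chosen with earlier results of these data known.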

Additional observations from a re-analysis of the deposited data

Results flagged for a closer look

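The lincRNA 9130204K15Rik was singled out because its libraries moved in opposite directions on the 2 days. Its log2 difference between Efhd2f/f Vil1cre/+ and Efhd2f/f IECs was -1.74 on day 0, with both deficient libraries below both controls, and 2.57 on day 7, with both above both. With equal sums over the protein_coding rows the day 7 value was 0.20 (adjusted p = 0.904, limma), no longer called and close to 0, while that of day 0 was -2.38. Most protein_coding rows of day 7 were themselves higher, so this scaling removes much of any increase by construction. It therefore does not decide whether the day 7 difference is one of scaling. The difference between the days was not tested, because the tables were scaled separately. It was listed in both tables, so each direction had passed the authors' thresholds.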

How the results depend on the processing

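Of 16 higher and 33 lower members on day 0 and 5 higher and 1 lower on day 7, limma called 15, 30, 4 and 1. With equal sums over the protein_coding rows, the median log2 difference of all rows shifts by -0.66 on day 0 and -2.41 on day 7. Then 5 members were called higher on day 0 and 1 on day 7, and 9130204K15Rik on day 7 was at 0.20. The sums cover only rows kept for a difference, so the lost higher calls follow in part from the scaling itself. With a log2 difference above 2, 4 were called higher and 12 lower on day 0. Limited to rows averaging 50 or more, the calls were 12 higher and 16 lower on day 0 and 2 higher and 1 lower on day 7, which were all the members left. They include rows not called before that rest on 1 library: Atp6v0c-ps2, Gm2260 and Gm12191 on library 50, and BC018473 on library 65. The groups of Atp6v0c-ps2 and BC018473 overlapped, so these calls do not show that every abundant member holds. Without shared variance, limma called 0 in all 4 sets (7 higher and 16 lower on day 0, 3 and 0 on day 7 at an unadjusted p under 0.05). Leaving out 1 library at a time, the calls ranged from 0 to 13 higher and 0 to 24 lower on day 0, and were 0 in both directions on day 7. The unadjusted p was under 0.05 for 8, 9 and 11 higher and 14, 19 and 18 lower members without libraries 51, 53 and 50, and for 3 or 4 higher and at most 1 lower on day 7. Only without library 52 did calls remain on day 0 (13 and 24). Atp6v0c-ps2 turned from -2.95 to 0.16 without library 50 (range -6.07 to 0.16), and BC018473 from 2.72 to -0.64 without library 65 (range -0.64 to 6.07). The cause of these changes was not tested.

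No paired analysis was possible because the table columns do not carry the labels' replicate numbers. The count models planned as an alternative were not run, since whole reads were not recovered. The level of the pseudogene rows of day 0 differed by 0.12 (log2) as a sum over rows and by -1.75 as a median over rows. With 2 libraries a group and unknown depth, low members such as Gm19951 and Gm7457 rest on few reads.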
